A study of Homo sapiens with 7 samples.

Results

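The comparison described here takes the 5 arrays of CtBP knockdown clones as a single group and sets them against the 2 arrays of scramble control clones. These are all 7 arrays of the series, so no array was left aside. The arrays hold 33297 transcript clusters, of which 19181 carry exactly 1 gene symbol in the platform annotation, and these stand for 17958 genes, all of which were tested. Every clone was made from SKOV3, an established human ovarian carcinoma cell line that the labels class as serous, by stable lentiviral infection, and all of them were grown in OVCA medium with puromycin. The groups were scramble control (2 clones), CtBP1 knockdown (3 clones) and CtBP2 knockdown (2 clones), with 1 Affymetrix Human Gene 1.1 ST array per clone. The scramble clones share the lentivirus and the drug with the knockdown clones. Each array is a clone, so a difference between groups also holds whatever sets single clones apart, and a p-value here reflects the spread among these 7 arrays alone, part of which may be technical. In RNA from a whole culture, fewer cells that express a gene and less of its RNA per cell cannot be told apart.

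CtBP1 and CtBP2 are closely related corepressors that do not bind DNA themselves. Factors such as ZEB1, ZEB2, KLF3 and ZFPM2 carry them to promoters, where they bring in histone deacetylases, histone methyltransferases and the demethylase KDM1A, and the 2 proteins can pair with each other. They are known for holding down epithelial adhesion genes and pro-apoptotic genes in carcinoma cells and for sensing the NADH level of the cell. Pooling both knockdowns asks which genes lay on the same side of the controls whichever paralog was targeted.

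The targeted genes themselves do not show a shared loss. CTBP2 had log2 signals of 5.70 and 6.14 on scramble controls 1 and 2, of 4.64 and 4.22 on the 2 CtBP2 knockdown arrays, and of 6.25, 6.31 and 6.27 on those labelled CtBP1 knockdown. Both CtBP2 knockdown arrays were below every other array, while all 3 CtBP1 arrays were above both controls. CTBP1 had signals of 5.69 and 6.37 on the controls, of 6.81 and 6.32 on the CtBP2 arrays, and of 5.11, 6.13 and 6.13 on those labelled CtBP1 knockdown. Of the last 3 only array 1 was below both controls. Arrays 2 and 3 lay below control 2 and both CtBP2 arrays but above control 1, which stands apart from the other arrays (below). Their label was thus not borne out against both controls, and all 3 are called the CtBP1-labelled arrays here. Pooled over all 5 arrays, CTBP1 differed from scramble by 0.06 ± 0.428 on the log2 scale (SE of the limma fit) and CTBP2 by -0.38 ± 0.659 (-0.02 for a dimmer CTBP2 cluster), and each had a two-sided exact permutation p of 0.952. With 5 arrays against 2 there are 21 arrangements and the smallest two-sided p they allow is 0.0952, so no single gene can pass 0.05 by that test.

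Scramble control 1 stands apart from the other arrays, which bears on every value below. Over the 17958 genes its correlation with the others was 0.926 to 0.941, against 0.971 to 0.993 among the other 6 arrays, and its signals spanned a narrower range (interquartile range 2.2 log2 units, against 2.85 to 3.15 for the rest). Scramble control 2 correlated with the 5 knockdown arrays at 0.975 to 0.983. These correlations run across genes, which are not replicates, and only describe the arrays. The labelled cell type was checked with markers of the carcinoma cells: ERBB2 (8.52 to 9.58), KRT18 (7.36 to 8.1) and PAX8 (6.41 to 8.65) were high on all 7 arrays, while WT1, EMX2, CALB2 and PDPN were below the median gene. Of other cell types, 17 of 18 fibroblast and endothelial markers and 15 of 16 leukocyte markers lay below the median gene level of 3.25 on every array, the exceptions being COL1A1 (at most 3.32) and CD68 (5.9 to 7.11), a lysosomal protein also made outside macrophages.

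No gene passed the test. With limma, 0 of 17958 genes (0.0%) had an adjusted p under 0.05, and the smallest adjusted p was 0.416, for LRRN4 and ZFPM2. At an unadjusted p under 0.05 there were 1231 genes (6.85%), 690 higher and 541 lower in the knockdown arrays. The genes on which the groups did not overlap were therefore described by their values. All 5 knockdown arrays lay above both controls on 714 genes (3.98%) and below both on 892 genes (4.97%), and the mean difference was above 0 for 8846 genes (49.3%). Were the 7 arrays interchangeable, the controls would be the 2 lowest in 1 of 21 arrangements, and likewise the 2 highest. Both shares are near that, so the counts themselves are not a result about the knockdowns. Most of these separations were narrow: the gap, the distance from the nearest knockdown array to the nearest control, had a median of 0.0917 log2 units on the higher side and 0.0619 on the lower side. It exceeded 0.5 for 38 higher and 19 lower genes, and 1 for 8 higher and 2 lower genes.

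The direction of separation went with the level of the gene. Of the 714 higher genes 553 were above the median level, against 222 of the 892 lower genes. Of the dimmest 25% of genes 0.69% were separated higher and 9.06% lower, and of the brightest 25% 5.23% were higher and 2.45% lower. Scramble control 1 differed in the same pattern, with a median difference from the knockdown mean of 0.2 in the dimmest and -0.6 in the brightest of these groups, while scramble control 2 differed by 0.03 and 0.11. The part of this narrow range in the counts was not tested. Of all separated genes 44.5% were higher. That share was 27.4% (538 higher, 1426 lower) when each array was centred on its median, and 29.0% (694 higher, 1696 lower) when arrays were scaled to a common median and range, an alternative added after the data were seen. It was 51.0% (1055 higher, 1015 lower) after renewed quantile normalization, and 58.5% and 71.4% without the dimmest 25% and 50% of genes. The split by direction thus depends on the scaling and on the filter.

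**Figure D1:**
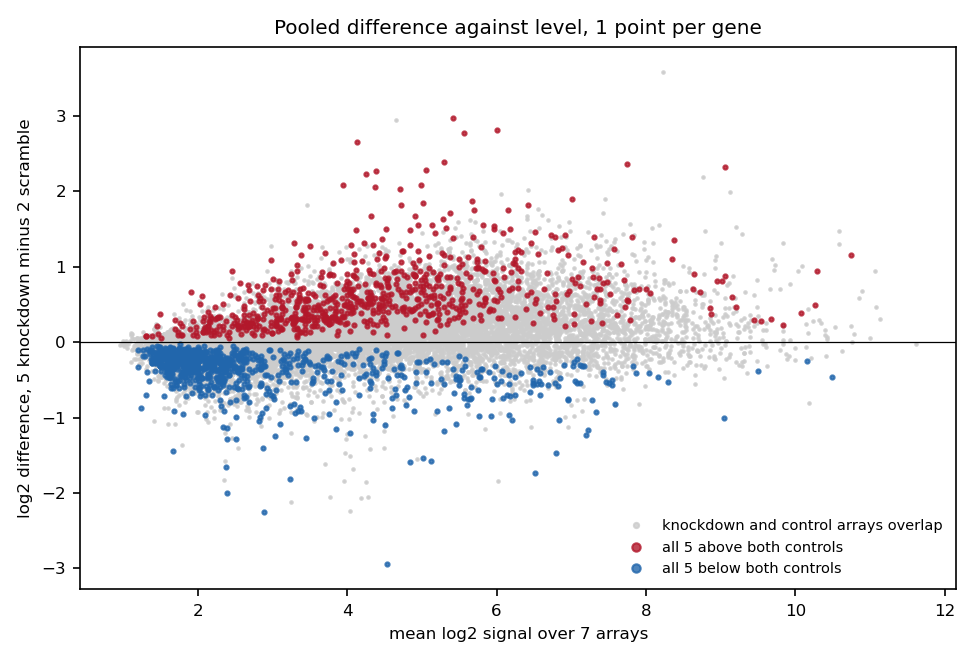
Each point is a gene; the horizontal axis is its mean log2 signal over the 7 arrays and the vertical axis the log2 difference of the 5 knockdown arrays from the 2 scramble arrays. Red points are the 714 genes with all 5 knockdown arrays above both controls, blue points the 892 genes with all 5 below, and grey points the genes with overlapping groups. Blue points crowd at low signals, where 9.06% of the dimmest 25% of genes lay below both controls.

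The widest gaps on the higher side were those of IL6, LRRN4 and MT1F, at 1.95, 1.87 and 1.54. The 15 genes named were those with the largest gap among protein-coding genes with a proper name, so their gaps and differences are a description. Their gaps ran from 0.76 to 1.95 and their differences from 1.11 to 2.98, and all 15 were above the median level. Their limma adjusted p lay between 0.416 and 0.56. None of the 15 differences moved by over 1.5 times without either control. Choice by the gap to the nearest control favours such genes, so this is not a separate check.

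Among ligands and receptors the widest gap was that of IL6, which encodes a cytokine of inflammation and of ovarian cancer ascites. Its log2 signals were 3.13 and 3.43 on the controls, 6.01, 7.27 and 5.38 on the CtBP1-labelled arrays, and 7.27 and 5.38 on the CtBP2 arrays. Every knockdown array was thus at least 1.95 above the higher control, and the values of CtBP1-labelled arrays 2 and 3 recurred on CtBP2 arrays 1 and 2. The pooled difference was 2.98 ± 0.615 (SE), or 7.89-fold. A second, dimmer IL6 transcript cluster had a difference of 0.29 and a gap of 0.1. IL1R1, the receptor through which interleukin-1 signals, gave 2.85 and 2.69 on the controls, 4.93, 4.17 and 4.23 on the CtBP1-labelled arrays, and 6.09 and 5.80 on the CtBP2 arrays. It was higher on every knockdown array and highest on the CtBP2 arrays, with a pooled difference of 2.27 ± 0.563. IGFBP7, a secreted protein that binds insulin-like growth factors, had 5.58 and 6.54 on the controls against 8.37, 8.21, 9.23, 8.65 and 7.63 on the knockdown arrays. The difference of 2.36 ± 0.437 was 2.84 against control 1 alone and 1.88 against control 2 alone.

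The genes of the cell surface and the matrix in this set were LRRN4, ADGRG1, ITGB3, TGFBI and PLLP. LRRN4, a leucine-rich repeat protein used as a mesothelial marker, had 3.64 and 3.54 on the controls, 6.45, 5.62 and 6.25 on the CtBP1-labelled arrays and 5.51 and 6.06 on the CtBP2 arrays. The 2 controls were nearly equal and the knockdown arrays spread over less than the gap of 1.87, and the difference was 2.39 ± 0.27, or 5.25-fold. ADGRG1, an adhesion receptor that binds matrix ligands, had 3.32 and 3.20 on the controls, 5.29, 5.84 and 6.49 on the CtBP1-labelled arrays and 4.47 and 4.38 on the CtBP2 arrays. All 5 were above, the CtBP1-labelled arrays farther. TGFBI, a secreted matrix protein that TGF-beta induces, had 3.17 and 4.0 on the controls, 5.63, 4.88 and 5.81 on the CtBP1-labelled arrays and 8.05 and 7.39 on the CtBP2 arrays. Its knockdown arrays had an SD of 1.32, the widest spread among the 15, with the CtBP2 arrays the higher ones. ITGB3, the beta subunit of the vitronectin receptor, was the most even of the 15, at 3.79 and 3.42 on the controls and between 4.56 and 4.89 on all 5 knockdown arrays, with a difference of 1.11 ± 0.151. PLLP, a membrane protein of myelin and epithelia, differed by 1.71 ± 0.328, at 2.19 against control 2 alone and 1.24 against control 1 alone.

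Inside the cell, the set held a metal-binding protein, a transcription factor and genes of trafficking and the cytoskeleton. MT1F, a metallothionein that buffers zinc and copper, had 4.11 and 3.90 on the controls, 6.55, 5.65 and 7.65 on the CtBP1-labelled arrays and 7.10 and 7.14 on the CtBP2 arrays, a difference of 2.81 ± 0.491 or 7.02-fold. Metallothionein genes are near-identical in sequence, so a signal may mix members. EPAS1, the hypoxia-inducible factor 2 alpha subunit, had 4.73 and 4.68 on the controls against 6.72, 6.06, 6.57, 6.25 and 5.72 on the knockdown arrays. It was 2.95-fold higher (1.56 ± 0.267), and its controls were again nearly equal. VPS35L, part of the retriever complex that recycles membrane proteins from endosomes, differed by 2.08 ± 0.385, and RAB3B, a small GTPase of vesicle release, by 1.82 ± 0.456. TUBA4A, an alpha-tubulin, differed by 1.90 ± 0.352, AFAP1L2, an adaptor of Src-family kinase signalling, by 1.67 ± 0.283, and MEST, an imprinted gene of the alpha/beta hydrolase fold, by 1.21 ± 0.235.

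**Figure D2:**
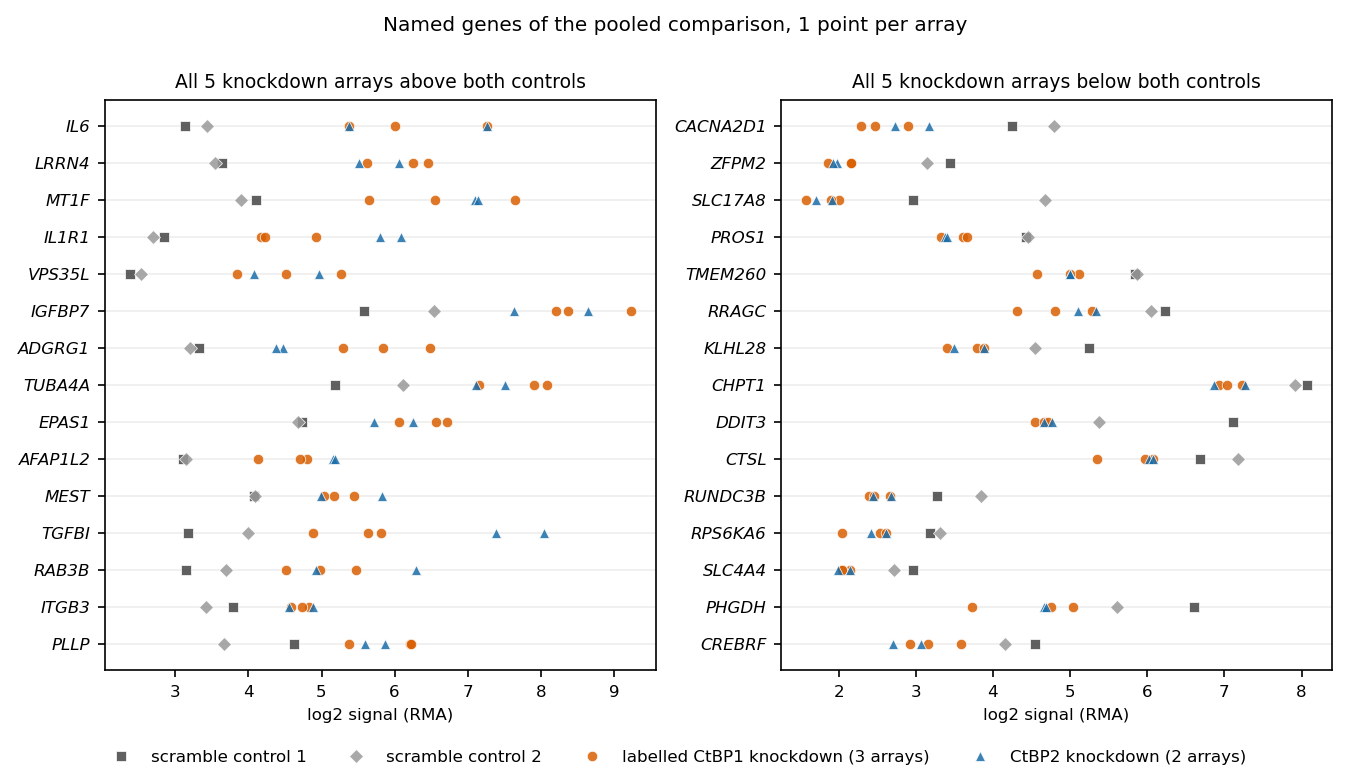
The log2 signal (horizontal axis) of each named gene on each of the 7 arrays, with dark squares for scramble control 1, light diamonds for scramble control 2, orange circles for the 3 CtBP1-labelled arrays and blue triangles for the 2 CtBP2 arrays. The left panel holds the 15 genes with the widest gap above both controls, from IL6 (1.95) to PLLP (0.76), and the right panel the 15 with the widest gap below, from CACNA2D1 (1.08) to CREBRF (0.57).

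On the lower side the widest gaps were those of CACNA2D1, ZFPM2 and SLC17A8, at 1.08, 0.99 and 0.97. The 15 genes named by the same rule had gaps of 0.57 to 1.08 and differences between 0.77 and 2.0 in size, and 9 of them were above the median level. Their adjusted p lay between 0.416 and 0.56. Only SLC17A8 and DDIT3 moved by over 1.5 times without a control, where the choice by gap again favours steady differences.

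CACNA2D1, the alpha-2-delta subunit that brings voltage-gated calcium channels to the membrane, had the widest gap. Its signals were 4.25 and 4.79 on the controls, 2.47, 2.90 and 2.29 on the CtBP1-labelled arrays and 2.73 and 3.17 on the CtBP2 arrays. All 5 were at least 1.08 below the lower control, and the difference was -1.81 ± 0.263, a 3.5-fold lower signal. ZFPM2, a GATA cofactor that itself binds CtBP, had 3.45 and 3.15 on the controls and between 1.86 and 2.16 on the knockdown arrays. The difference of -1.28 ± 0.138 had, with that of LRRN4, the smallest adjusted p of the comparison (limma, 0.416), and its knockdown signals were below the median gene level of 3.25. SLC17A8, a vesicular glutamate transporter, had 2.97 and 4.67 on the controls and between 1.58 and 2.00 on the knockdown arrays. The 5 knockdown arrays were close together and the controls were not, so that the difference of -2.00 ± 0.405 was -1.15 against control 1 alone and -2.85 against control 2 alone. SLC4A4, a sodium bicarbonate cotransporter, differed by -0.77 ± 0.11 at a dim mean level of 2.3, below the median gene level.

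Of the lower genes, DDIT3, PHGDH, RRAGC and CREBRF are known from the response to nutrients or stress. DDIT3, the transcription factor CHOP of endoplasmic reticulum stress, had 7.11 and 5.38 on the controls, 4.55, 4.66 and 4.71 on the CtBP1-labelled arrays and 4.66 and 4.76 on the CtBP2 arrays. The knockdown arrays had an SD of 0.0771 while the controls were far apart, and the difference of -1.58 ± 0.4 was -2.45 against control 1 alone and -0.71 against control 2 alone. PHGDH, the first enzyme of serine synthesis, had 6.60 and 5.61 on the controls against 3.73, 4.75, 5.04, 4.66 and 4.69 on the knockdown arrays, a difference of -1.54 ± 0.393. It was below both controls on all 5, lowest on CtBP1-labelled array 1. RRAGC, a Rag GTPase that recruits mTORC1 to lysosomes when amino acids are present, had 6.23 and 6.05 on the controls and 5.28, 4.31, 4.80, 5.10 and 5.34 on the knockdown arrays. CREBRF, a negative regulator of the stress factor CREB3, differed by -1.27 ± 0.239, and the lysosomal protease CTSL by -1.03 ± 0.24.

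For PROS1, TMEM260 and CHPT1 the controls lay within 0.2 of each other. PROS1, which encodes the anticoagulant protein S, had 4.43 and 4.45 on the controls against 3.61, 3.33, 3.66, 3.38 and 3.40 on the knockdown arrays, and a dimmer PROS1 cluster, with overlapping groups, differed by -0.41. TMEM260, an O-mannosyltransferase, had 5.84 and 5.87 on the controls against 5.11, 4.57, 5.0, 5.0 and 5.0 on the knockdown arrays. CHPT1, which makes phosphatidylcholine, had 8.07 and 7.92 on the controls against 7.23, 6.93, 7.03, 6.87 and 7.27 and was the brightest of the 15. All 5 knockdown arrays were below both controls by at least 0.65 on these genes, and the differences were -0.96 ± 0.126, -0.92 ± 0.157 and -0.93 ± 0.145. The others were KLHL28, a kelch-like protein (-1.20 ± 0.226), RUNDC3B (-1.04 ± 0.175) and RPS6KA6, a ribosomal S6 kinase (-0.80 ± 0.173). RUNDC3B and RPS6KA6 were dim, with mean levels of 2.82 and 2.68, below the median gene level of 3.25.

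CtBP reaches DNA through factors with known recognition letters, so the promoters of the named genes were read for CACCTG, bound by ZEB factors, and CCACACCC, a KLF3-type box. They were also read for TGANTCA, an AP-1 motif with any base at N, though AP-1 is not among the CtBP recruiting factors listed here. Each motif was read on both strands, where a match of 1 motif may overlap a match of another. Promoters were the 250 bases before the start in RefSeq's table for GRCh38.p14. Of the 30 named genes 20 had exactly 1 entry there (8 higher, 12 lower). CACCTG was present in 3 of the 8 higher (TUBA4A, RAB3B, PLLP) and 2 of the 12 lower genes (RRAGC, PHGDH), against 17.5% of all 35116 promoters in the table. TGANTCA was present in RAB3B and RRAGC, against 6.57% of all promoters, and CCACACCC in 0 of the 20, against 2.97%. A match is only a match of letters. The promoters shown are those of the genes with the widest gap in each direction, IL6 and CACNA2D1, in which none of the 3 motifs was found, and that of TUBA4A, where capitals mark CAGGTG, the reverse complement of CACCTG, whose first base lies 179 bases before the start. IL6 lies on the plus strand at chr7:22726950-22727199, CACNA2D1 on the minus strand at chr7:82443957-82444206 and TUBA4A on the minus strand at chr2:219253919-219254168, all GRCh38.p14 and written 5′ to 3′.
IL6: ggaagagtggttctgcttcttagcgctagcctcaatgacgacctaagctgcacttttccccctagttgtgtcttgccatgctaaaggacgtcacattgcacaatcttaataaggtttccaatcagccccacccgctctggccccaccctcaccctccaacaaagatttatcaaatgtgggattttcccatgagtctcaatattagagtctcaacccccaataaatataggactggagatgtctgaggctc
CACNA2D1: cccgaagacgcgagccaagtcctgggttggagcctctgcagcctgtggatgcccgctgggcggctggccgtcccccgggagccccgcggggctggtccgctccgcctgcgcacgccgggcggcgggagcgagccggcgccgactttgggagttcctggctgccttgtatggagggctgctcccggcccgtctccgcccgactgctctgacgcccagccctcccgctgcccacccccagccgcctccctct
TUBA4A: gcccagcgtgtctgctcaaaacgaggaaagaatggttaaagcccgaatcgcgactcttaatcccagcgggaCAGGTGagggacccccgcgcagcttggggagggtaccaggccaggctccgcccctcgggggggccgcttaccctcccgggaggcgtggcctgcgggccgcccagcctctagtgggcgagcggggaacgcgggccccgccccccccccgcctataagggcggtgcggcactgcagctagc

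Pooling hides differences between the knockdowns, so these were tested directly. The contrast of CtBP2 with CtBP1-labelled arrays uses no control array in its difference. The limma fit with 3 group means called 0 of 17958 genes (0.0%), with a smallest adjusted p of 0.129. At an unadjusted p under 0.05 there were 1395 genes (7.77%), 954 higher and 441 lower on the CtBP2 arrays. Of the 1606 separated genes, 111 (6.91%) were among them, a share near that of all genes. Among the higher ones the CtBP2 arrays were the farther group for 79 and the CtBP1-labelled arrays for 13, and among the lower ones for 17 and 2. Of the 15 named higher genes IL1R1, ADGRG1, AFAP1L2 and TGFBI had an unadjusted direct p under 0.05, and of the 15 named lower genes 0 did, where the direct differences ran from -0.33 to 0.42. Set side by side, against the same controls, the CtBP1-labelled and CtBP2 differences were 1.68 and 3.17 for IL1R1, 2.61 and 1.16 for ADGRG1, 1.42 and 2.05 for AFAP1L2 and 1.86 and 4.14 for TGFBI. For IL6 they were 2.94 and 3.04, for ITGB3 1.11 and 1.12, and for CACNA2D1 -1.96 and -1.57.

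The separated genes with the smallest direct p were taken, 5 in each direction among protein-coding genes, with ADGRG1 among them. Those with a small gap show how far a shared side can rest on a single knockdown. ADGRG1, GDPD3 and KLF7, with gaps of 1.06, 0.38 and 0.26, were clear of the controls on both. NT5E (CD73), an ectoenzyme that turns extracellular AMP into adenosine, had 5.05 and 4.81 on the controls, 5.25, 5.24 and 5.19 on the CtBP1-labelled arrays and 6.62 and 6.94 on the CtBP2 arrays. Its CtBP1-labelled arrays cleared the higher control by 0.14, while the CtBP2 arrays were 1.56 ± 0.144 above the CtBP1-labelled ones (limma, adjusted p = 0.129). NFKB1, a subunit of NF-kB, was alike, with 4.77 and 4.84 on the controls, 5.08, 4.85 and 4.89 on the CtBP1-labelled arrays and 6.16 and 6.12 on the CtBP2 arrays, and its gap was 0.01. CCNQ, a cyclin, the immunoproteasome subunit PSMB9 and PI3, which encodes the protease inhibitor elafin, were also far higher on the CtBP2 arrays, with direct differences of 1.26, 1.14 and 1.65. TSPAN1, a tetraspanin, went the other way, with 6.54 and 6.98 on the controls, 7.80, 8.02 and 8.09 on the CtBP1-labelled arrays and 7.02 and 7.15 on the CtBP2 arrays. CRTC1, a coactivator of CREB, had a direct difference of -0.81 ± 0.243 and CtBP2 arrays 0.03 above the higher control. On the lower side, KLF7, a Krüppel-like factor, had 7.83 and 7.81 on the controls, 7.55, 7.33 and 7.14 on the CtBP1-labelled arrays and 6.62 and 6.58 on the CtBP2 arrays, and GDPD3, a lysophospholipase D, differed directly by -0.36 ± 0.109. These 10 genes were chosen by the direct test, so their direct differences are a description, with adjusted p from 0.129 to 0.487. On 138 genes (0.768%) the 2 knockdowns lay on opposite sides of both controls, 59 with the CtBP1-labelled and 79 with the CtBP2 arrays above, and CTBP2 was among the former.

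**Figure D3:**
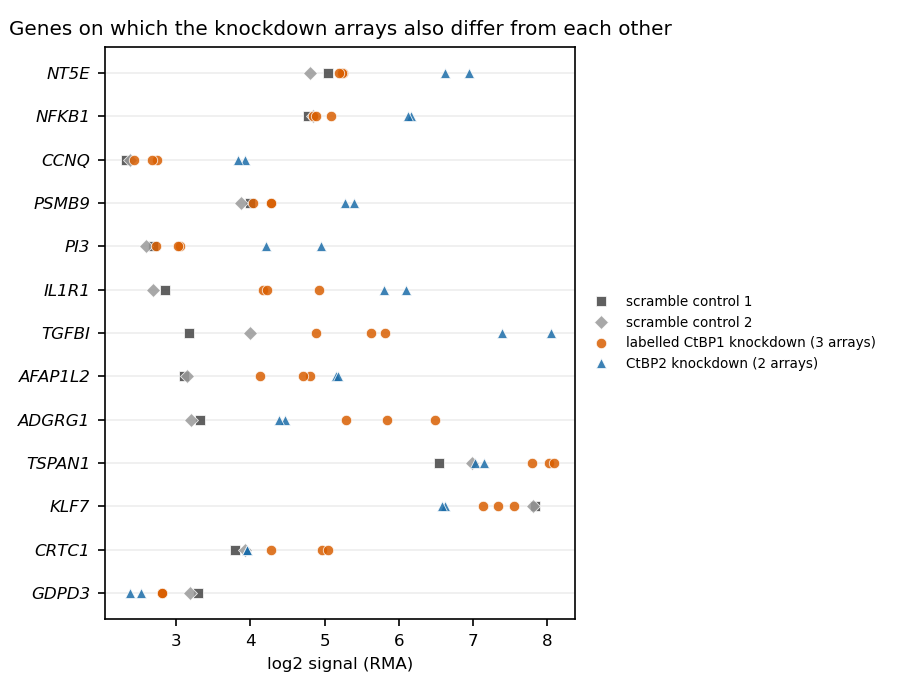
The log2 signal (horizontal axis) on each of the 7 arrays of 13 separated genes on which the knockdown arrays also differ from each other at an unadjusted p under 0.05, drawn with the same symbols for the 2 scramble, 3 CtBP1-labelled and 2 CtBP2 arrays. For NT5E, NFKB1, CCNQ, PSMB9 and PI3 the CtBP1-labelled arrays lie beside the controls and the CtBP2 arrays apart, with gaps of 0.01 to 0.14.

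Groups of genes were then read from 28 lists, of which 618 different genes were measured and 75 were separated. No member of any list passed the test, so each list is described by its counts and its median difference, beside 3.98% separated higher, 4.97% separated lower and a median difference of 0.0 over all genes. The share with a higher mean was 49.3% over all genes. By level, the median difference was -0.12 in the dimmest and 0.26 in the brightest 25% of genes. The bright integrin and matrix (0.30), respiratory chain (0.29) and ribosomal protein (0.29) lists had medians near the latter. Some separated members had very narrow gaps, such as MT2A with 0.04, BOK and TNFRSF10B with 0.02, MCM10 with 0.01 and CKS2 with under 0.01. With a minus sign for genes below the controls, the gaps of DNAJB9, CA12 and RPL4 were -0.03, -0.01 and -0.01. Without each control in turn, the median kept its sign for 17 lists and did not for 11. With a common range, medians also turned sign for glycolysis (0.18 to -0.47), CtBP complex genes (0.19 to -0.21) and EMT genes (0.21 to -0.14). So did those of epithelial (0.15 to -0.11), cholesterol (0.07 to -0.17) and BCL2 family genes (0.05 to -0.08), besides lists given below. That of leukocyte markers turned from -0.09 to 0.05 with renewed quantile normalization. Besides the 30 genes above, the naming rule took 52 separated list members, of which 24 moved by over 1.5 times without 1 of the controls. Where a difference is given as a pair of values below, these are against control 1 alone and control 2 alone.

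Of the interleukin-1 and NF-kB genes, which cover the receptors, the signalling proteins and the cytokines they induce, 25 of 29 had a higher mean in the knockdown arrays and 6 (20.7%) lay above both controls on all 5, with 0 below. These were IL6, IL1R1, LIF, NFKB2, IL1RAP and NFKB1. LIF, a cytokine of the interleukin-6 family, had 3.47 and 3.13 on the controls and between 3.84 and 4.51 on the knockdown arrays, but its other transcript cluster differed by -0.63. NFKB2, an NF-kB subunit, differed by 0.45 ± 0.156. The list median of 0.51 was 0.68 against control 2 alone and 0.11 against control 1 alone, and between 0.26 and 0.46 under the 3 other scalings. The chemokine genes CXCL8 (1.35), CCL2 (0.98), CCL20 (0.42), CXCL2 (0.40) and CXCL3 (-0.01) had overlapping groups, and CXCL8 differed by 0.03 from control 1 and by 2.67 from control 2. IL1B, with a difference of 0.94, also overlapped, at -0.48 for the CtBP1-labelled and 3.08 for the CtBP2 arrays.

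TGF-beta signalling and target genes had 6 of 22 members (27.3%) above both controls and 1, SMAD4, below. The ligand TGFB1 had 4.71 and 4.83 on the controls and between 5.04 and 5.47 on the knockdown arrays, a difference of 0.49 ± 0.154. Among targets, TGFBI is described above, CCN2 differed by 1.45 ± 0.459 and CCN1 by 1.75 ± 0.57, both matricellular proteins that are also YAP targets. Their size followed the control kept: CCN1 had 3.25 and 5.65 on the controls and between 5.83 and 6.53 on the knockdown arrays, so that it differed by 2.95 from control 1 and by 0.55 from control 2, and CCN2 by 2.31 and 0.59. The inhibitory SMAD7 (0.42, with 0.57 and 0.27) and the latent binding protein LTBP2 (0.18) were the other members above, while the receptor TGFBR2 (1.21, with 1.94 and 0.47) and PMEPA1 (1.22) had overlapping groups. The median was 0.20, with 0.18 against control 2 and 0.47 against control 1.

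The integrin and extracellular matrix list had 21 of 24 genes with a higher mean, 4 above both controls and 1 below, and a median of 0.30 that turned to -0.12 when arrays were scaled to a common range. Above were ITGB3, SDC4, a heparan sulfate coreceptor (0.62 ± 0.176), and the basement membrane collagens COL4A2 (0.90 ± 0.249, with 1.34 and 0.46) and COL4A1 (0.74). Below was ITGA6, a laminin receptor subunit, with 7.60 and 7.54 on the controls and 6.44, 6.17, 7.13, 6.26 and 6.72 on the knockdown arrays (-1.03 ± 0.26). The integrin subunits ITGB3 and ITGA6 thus lay on different sides.

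Genes of the epithelial state did not lie on a common side. Among epithelial junction and keratin genes 14 of 23 had a higher mean, with EPCAM (0.99 ± 0.297, with 0.54 and 1.44) above both controls and DSC2, a desmosomal cadherin (-1.10 ± 0.428), below. CDH1, a well-known CtBP target, differed by 0.20 with overlapping groups, at 0.09 and 0.32. A second EPCAM cluster differed by 0.86 with overlapping groups. The list of genes described as CtBP-repressed had 12 of 19 higher means, 3 genes above both controls (EPCAM, the apoptosis effector BAX and the death receptor TNFRSF10A) and 1 below (the death receptor TNFRSF10B). BAX had 4.46 and 4.84 on the controls and between 5.0 and 5.58 on the knockdown arrays, a difference of 0.70 ± 0.192. The median of 0.13 was -0.04 against control 2 alone, and -0.09 after scaling to a common range. Of the EMT factors, TWIST1 had 5.82 and 5.19 on the controls and between 4.86 and 5.11 on the knockdown arrays, and MMP14 differed by -0.26 ± 0.104. TWIST1 differed by -0.54 ± 0.178, at -0.86 and -0.22. With overlapping groups, ZEB1 differed by -0.31 (0.01 and -0.62) and ZEB2 by -0.49 (-0.88 and -0.09). CD44 was above by 0.28 ± 0.151, and turned to -0.90 with the common range. Among the CtBP recruiting factors 1 of 24, ZFPM2, was separated, and of the CtBP complex genes 0 of 18 were.

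Cell-death genes of the BCL2 family were separated in both directions, 2 above and 2 below among 19. BCL2, which blocks apoptosis, had 2.69 and 2.60 on the controls and between 2.14 and 2.24 on the knockdown arrays (-0.46 ± 0.0921), a dim but tight signal. HRK, a pro-apoptotic member, had 5.74 and 5.01 against 4.25 to 4.68 (-0.84 ± 0.216, with -1.20 and -0.47). BAX and BOK (0.51 ± 0.201, with 0.83 and 0.19) were the 2 above, and the median of the list was 0.05. Of the p53 target genes 9 of 19 had a higher mean and the median was 0.00. These are genes induced by p53 in cells that have it, and SKOV3 is p53-deficient, so the list is not a reading of p53 activity here. CDKN1A, a well-known target, differed by -0.30, at -0.56 and -0.04.

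Peptide processing and class I display genes had 15 of 18 higher means, with 5 above both controls and CANX, a chaperone, below. Above were PSMB9, HLA-F (0.85 ± 0.289), TAP2 (0.55 ± 0.194, with 0.75 and 0.36), TAPBP (0.54, with 0.74 and 0.35) and CALR (0.70, with 1.28 and 0.13). The gaps were 0.17 for HLA-F and 0.12 for TAP2, but only 0.05 for PSMB9, 0.02 for CALR and 0.01 for TAPBP. The other HLA-F clusters differed by 0.53 and 0.73 with overlapping groups. The median of 0.49 was 0.48 against control 2 and 0.29 against control 1, and -0.02 after scaling to a common range, and it was 0.31 for the CtBP1-labelled and 0.75 for the CtBP2 arrays. HLA genes are near-identical in places, so the probes may mix them. Interferon-stimulated genes did not follow, with 12 of 28 higher means, OAS3 (0.92 ± 0.219) and IFI6 above both controls, and a median of -0.02 that was 0.02 against control 2 alone and 0.06 and 0.04 under renewed quantile normalization and the common range. Metallothioneins had 4 of 9 genes (44.4%) above both controls, with a median of 0.80 that was 0.60 against control 2 and 0.88 against control 1. It was 0.42 for the CtBP1-labelled and 1.36 for the CtBP2 arrays, and 0.41 with a common range. Besides MT1F these were MT1B (0.89 ± 0.327), MT1G (0.72 ± 0.302) and MT2A (1.16 ± 0.391, with 1.86 and 0.46), the last at 9.23 and 10.62 on the controls and 10.65 to 11.50 on the knockdown arrays. The other MT2A clusters differed by 1.34 and 1.11 with overlapping groups. Since their sequences are near-identical, these counts may hold the same signal more than once.

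Among ATF4 and unfolded protein response genes 22 of 30 had a lower mean and 7 (23.3%) lay below both controls, with 0 above. They were DDIT3 and PHGDH, described above, PSAT1, the next enzyme of serine synthesis (-0.70, with -0.94 and -0.45), DDIT4, an inhibitor of mTORC1 (-0.63 ± 0.215), PPP1R15A, which reverses the translation block (-0.70, with -1.05 and -0.35), DNAJB9, an endoplasmic reticulum cochaperone (-0.94, with -1.56 and -0.33), and SEL1L, part of the degradation machinery of that organelle (-0.40 ± 0.107). DDIT4 had 4.37 and 4.39 on the controls and 3.37, 3.48, 3.84, 4.05 and 4.03 on the knockdown arrays, with the CtBP1-labelled arrays lowest. ATF4 itself differed by -0.57 (-1.13 and -0.01) and ASNS by -1.02 (-1.69 and -0.34) with overlapping groups, and HSPA5, the main chaperone, by -0.02. The list median of -0.15 was -0.30 against control 2 and -0.14 against control 1, and -0.74 after scaling to a common range. By knockdown it was -0.33 for the CtBP1-labelled arrays and 0.0 for the CtBP2 arrays. Hypoxia genes were split, with 3 of 23 above (EPAS1, PFKFB3 and ANGPTL4) and 3 below (NDRG1, CA12 and DDIT4). PFKFB3, an enzyme whose product drives glycolysis, had 4.34 and 4.04 on the controls, 5.18, 4.94 and 4.99 on the CtBP1-labelled and 5.67 and 5.57 on the CtBP2 arrays (1.09 ± 0.236). NDRG1, a stress-induced gene, had 8.63 and 7.04 on the controls and 6.19 to 6.65 on the knockdown arrays, and differed by -2.27 from control 1 and by -0.68 from control 2. PFKP, a phosphofructokinase, was the other separated glycolysis gene, with a gap of 0.04.

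The lists of dividing cells had nearly all means on the higher side and few separated genes. Of G2/M and mitosis genes 38 of 39 had a higher mean, but only MAD2L1, a spindle checkpoint protein, and CKS2, a kinase subunit, lay above both controls (5.13%). MAD2L1 had 4.09 and 4.88 on the controls and 5.12, 5.40, 5.15, 5.98 and 5.44 on the knockdown arrays. The list median was 0.79 with both controls, 1.72 against control 1 alone and -0.17 against control 2 alone, with the controls 2.09 apart, so its side depends on which control is used. DNA replication genes had 40 of 43 higher means, CDT1 (0.63 ± 0.167) and MCM10 above both, and medians of 0.47, 0.97 and 0.06 in the same order. Homologous recombination genes, with DNA2, SEM1 and RAD51D above both controls among 28, had 0.38, 0.72 and 0.0, and respiratory chain subunits 0.29, 0.65 and -0.12, or -0.33 with a common range. Replication-dependent histones had 27 of 29 higher means, 4 above both controls (H1-5, H2AC13, H4C4 and H1-1), and kept their sign, with 0.65, 0.99 and 0.31. For cholesterol synthesis genes, too, the controls were opposed: 10 of 18 had a higher mean, 0 were separated, and the median of 0.07 was 0.88 against control 1 and -1.07 against control 2. Signals of histone and ribosomal protein genes may mix copies that are close to identical.

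Ribosomal protein and small nuclear RNA genes had higher medians on the CtBP2 arrays. Of 38 ribosomal protein genes 33 had a higher mean, 0 lay above both controls and 1, RPL4, lay below. Their median of 0.29, which turned to -0.62 with a common range, was -0.05 for the CtBP1-labelled and 0.67 for the CtBP2 arrays. The other RPL4 clusters differed by -0.47 and 0.02 with overlapping groups. Of 12 spliceosomal small nuclear RNAs 10 had a higher mean and only RNU4-1, a U4 RNA, was separated, at 2.52 and 2.79 on the controls, 3.81, 3.53 and 4.09 on the CtBP1-labelled and 6.35 and 6.66 on the CtBP2 arrays. The list median was 0.13 and 1.16 by knockdown. The labels and the series' design text name different RNA extraction reagents, and any part of extraction in the level of such short RNAs was not tested. The marker lists of other cell types contributed little, with 1 of 18 fibroblast and endothelial markers (CLDN5, below, -0.31 ± 0.122) and 0 of 16 leukocyte markers separated. Among the carcinoma and mesothelial markers 14 of 17 had a higher mean and 4 lay above both controls, which were LRRN4, SOX17 (1.00 ± 0.313), EPCAM and ERBB2 (0.60 ± 0.186, or -0.44 with a common range). The median was 0.41, with 0.24 against control 2 and 0.41 against control 1. AP-1 and immediate-early factors had 18 of 24 higher means and only CCN1 separated, with a median of 0.17 and with JUN (0.91, with 1.59 and 0.22) and MYC (0.99, with 1.64 and 0.34) in overlapping groups.

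**Figure D4:**
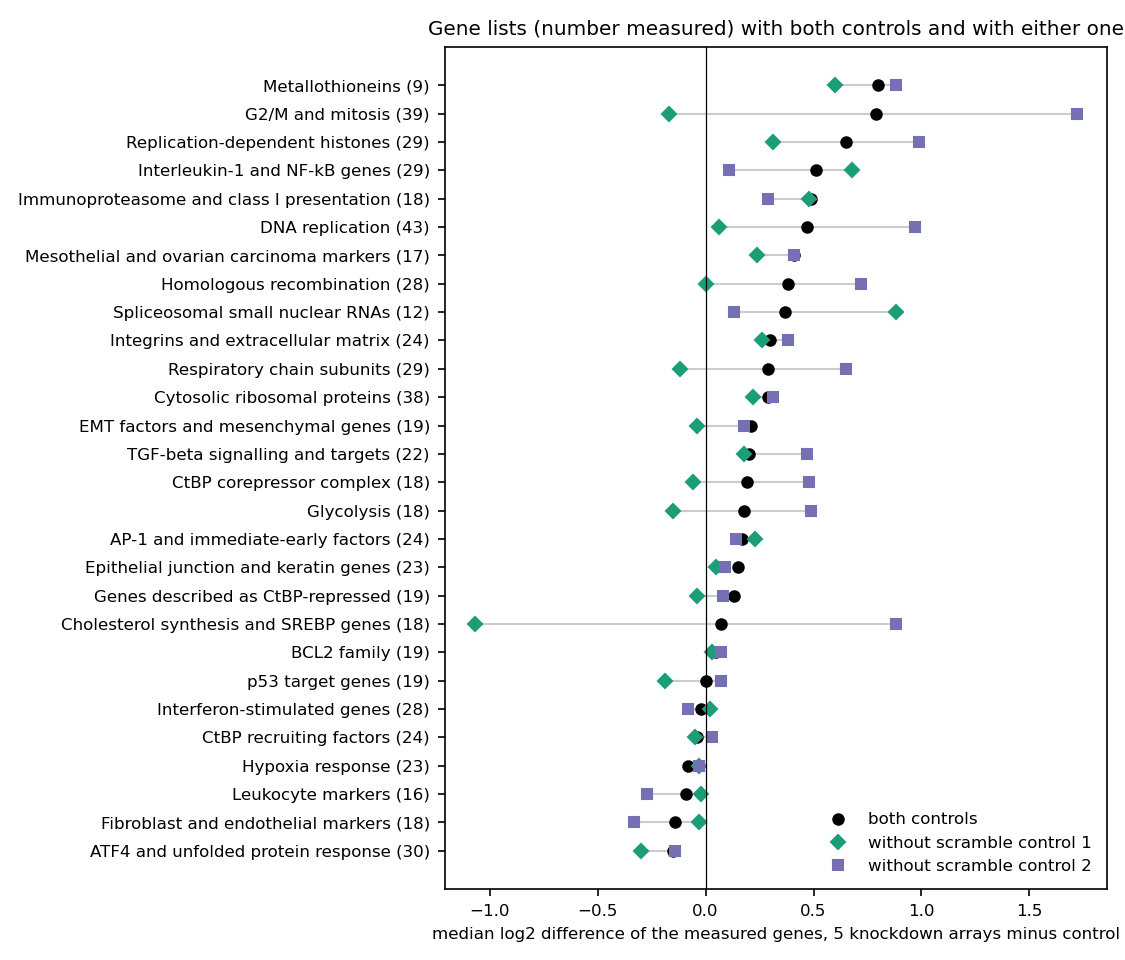
The median log2 difference (horizontal axis) of the measured genes of each of the 28 lists between the 5 knockdown arrays and the controls, with black circles for both controls, green diamonds without scramble control 1 and purple squares without scramble control 2, and grey lines joining them. The G2/M list runs from -0.17 to 1.72 and the cholesterol list from -1.07 to 0.88, while the metallothionein list stays between 0.60 and 0.88.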

How the data were processed

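Total RNA of 7 SKOV3 clones was measured on Human Gene 1.1 ST arrays. The authors deposited log2 signals for each transcript cluster, and per the submitters' processing notes used RMA in Affymetrix Expression Console. RMA corrects the background, makes probe distributions equal across arrays and summarises probes by median polish. A difference in range between arrays, as on scramble control 1, is still present in the deposited values, and its origin was not tested. No genome build is given in the sources used here. The labels' protocol names a column kit and the design text TRIzol.

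Groups and numbers came from the sample titles. Clusters with several symbols (2055) or none listed (12061) were not named. Symbols were taken from RefSeq genes of GRCh38.p14 where the gene identifier was found there (17930 genes, changed or not) and kept from the annotation otherwise (28). For the 895 genes with several clusters the cluster with the highest mean was used. No dim gene was filtered out. The number of arrays limits the precision.

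limma 3.58.1 in R 4.3.3 (lmFit, eBayes) was fitted with 2 group means over 7 arrays (5 residual and 2.011 prior degrees of freedom), two-sided, with Benjamini-Hochberg adjustment over 17958 genes and 0.05 as threshold. Unless named otherwise, ± gives the fit's standard error. A fit with 3 group means gave the knockdowns side by side and the direct contrast. The fit was tested on simulated data. Figures used matplotlib 3.10.9.

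The members, lists, rules and tests were chosen with earlier results of these data known. Named genes were, per direction, up to 15 protein-coding genes with separated groups by the widest gap, any past the threshold first. Added were up to 5 per direction by the direct p, up to 4 separated members of each list by gap, and CTBP1 and CTBP2. Other list members are named only where they complete a count, or were picked after their values were seen. Placeholder and Y-linked symbols were passed over. Of the genes, 7180 (40%) had identical values on 2 or more arrays.

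Alternatives were renewed quantile normalization, median centring, scaling to a common range, dim-gene filters, other cluster rules, other variance models, array weights, a replicate block, no tied genes, no arrays 2 and 3 labelled CtBP1 knockdown, and each array left out. With the controls as a group of 2, leaving out either assumes that the lone control varies like the knockdown arrays.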

Additional observations from a re-analysis of the deposited data

Results flagged for a closer look

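Among the 5 knockdown arrays, 4 of the 92 named genes had 1 array far from the rest by Dixon's test, which chance gives for about 1 in 20 groups. TMEM260 was at 4.57 on CtBP1-labelled array 2, below the other 4. CTSL was at 5.35 on CtBP1-labelled array 1, also the lowest. CCN2 was at 6.24 on CtBP2 array 1 and IFI6 at 4.76 on CtBP1-labelled array 3, both the highest. In each of the 4 the outlying array lay farther from the controls than the rest, so the separation does not rest on it.

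CTBP2 lay above both controls on the CtBP1-labelled arrays and below both on the CtBP2 arrays, with a direct difference of -1.85 (limma, adjusted p = 0.129). The pooled difference therefore averages opposite sides for this gene.

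Outside the genes tested, 14116 transcript clusters do not carry exactly 1 symbol. All 5 knockdown arrays lay above both controls on 366 of them (2.59%) and below on 715 (5.07%), against 3.98% and 4.97% of the genes tested.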

How the results depend on the processing

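Of 1903 values of the 92 named genes under 21 alternatives, 1854 kept direction and side of the threshold, 40 passed it without scramble control 2, and 9 had the other sign. These were CD44 (-0.90), ATP5F1C (-0.14), CKS2 (-0.27), ERBB2 (-0.44) and CTBP1 (-0.45) with the common range, LIF (-0.63) by the cluster with the largest variance, and CTBP1 with renewed quantile normalization (-0.09), without CtBP2 array 1 (-0.11) and without control 1 (-0.27). All named genes but CTBP1 and CTBP2 were chosen for separated groups, so leaving out an array cannot turn their sign. No gene passed the threshold with all arrays, so keeping its side was also nearly given. The count of values kept is thus largely set by the choice of genes. Leaving out arrays in turn, 0 to 3421 genes passed, and 3421 (1809 higher, 1612 lower) only without control 2, which leaves the outlying control 1 alone. In the same runs unadjusted calls numbered 662 to 6504, separated genes 801 to 5976 higher and 1000 to 5650 lower, which rise by construction with fewer arrays, and direct unadjusted calls 671 to 2552, the highest without either control. Unadjusted calls were 322 with array weights (0.3217 for both controls, 1.065 to 2.455 for the others), 1893 with the common range, 761 without arrays 2 and 3 labelled CtBP1 knockdown, 741 without tied genes and 645 without the dimmest 50% of genes. With the replicate block they were 794, with 0 genes past the threshold and a smallest adjusted p of 0.729. The deviations of same-numbered arrays from their group means correlated at -0.354 to 0.0977 over 6 pairs. In a group of 2 arrays the deviations mirror each other, so the pairs are not separate checks. Whether same-numbered arrays share a batch was not tested. Separated genes were 1457 higher and 1839 lower without those 2 CtBP1-labelled arrays, and the lower ones 1426 after centring, 1696 with the common range, 577 without tied genes, and 485 and 222 without the dimmest 25% and 50%. Counts without tied or dim genes follow in part from testing fewer genes, and the cause of the others was not tested. List medians were read under only some of the alternatives. Of these 280 medians 58 moved by over 1 SD, taken over the knockdown arrays' own list medians, 25 of them without a control.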

Other observations

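The largest pooled differences did not always go with separated groups, and the genes below were chosen after their values were seen. Of the 10 protein-coding genes with the largest positive difference 2 had overlapping groups. THBS1, which encodes the matrix protein thrombospondin 1, had 3.25 and 8.08 on the controls, 9.61, 8.36 and 7.82 on the CtBP1-labelled arrays and 10.65 and 9.85 on the CtBP2 arrays. Its difference of 3.59 ± 1.3 (limma, adjusted p = 0.56) was the largest of all named genes, at 6.0 against control 1 and 1.18 against control 2. SPARC, another matricellular protein, had 3.0 and 2.07 on the controls, 2.13, 3.34 and 6.22 on the CtBP1-labelled arrays and 8.06 and 7.71 on the CtBP2 arrays, so that CtBP1-labelled array 1 lay between the controls. HSPB1, a small heat shock protein, had 5.62 and 9.20 on the controls and 9.50 to 9.95 on the knockdown arrays. LDOC1, a regulator of transcription, had 3.19 and 3.65 on the controls against 7.38, 5.27, 5.05, 6.46 and 4.39, and CYP24A1, which breaks down vitamin D, 2.37 and 2.10 against 5.98, 3.84, 2.47, 6.32 and 5.81.

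On the lower side 4 of the 10 had overlapping groups. ZNF595, a zinc finger gene, had 7.70 and 3.64 on the controls and 2.47 to 3.92 on the knockdown arrays, and SLC9B1, a sodium proton exchanger, 5.80 and 1.51 against 1.33 to 2.41, so that control 1 alone stood high. LPAR1, a lysophosphatidic acid receptor, had 4.23 and 5.49 against 2.61, 3.32, 4.61, 2.59 and 3.08. GULP1, an engulfment adaptor, lay below both controls on all 5, at 8.41 and 7.10 against 6.83, 5.44, 6.12, 6.0 and 5.69, and SERPINB5, the serpin maspin, at 2.40 and 4.73 against 1.58 to 2.07. EDIL3, a matrix protein that binds integrins, had 5.67 and 6.29 against 4.47, 5.0, 2.12, 4.79 and 5.57.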
